A study of Caenorhabditis elegans with 18 samples.

Results

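The cytosolic ribosomal protein genes of Caenorhabditis elegans were taken as every gene whose symbol starts with rpl- or rps- followed by a digit. The rule found 78 of the 46253 genes in the deposited tables, 47 named for proteins of the large subunit (rpl) and 31 for proteins of the small subunit (rps). All 78 passed the filter on low counts, which left 16006 genes for testing.

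The samples were whole hermaphrodite populations of N2, the standard wild-type laboratory strain, synchronized by L1 starvation and grown on plates treated with ascr#10, a small-molecule signal of the ascaroside family that males release, or with water as the control. The 18 samples form 6 groups of 3 independently prepared samples: ascr#10 and water at 58 h after synchronization in the second collection, ascr#10 and water at 58 h in the first collection, and ascr#10 and water at 50 h, which were collected together with the first 58 h set. The 58 h samples were collected and sequenced again because the first sequencing was too shallow, per the series design text, so age was compared within the first collection alone. The 50 h groups were taken from titles and descriptions, since the age field of those samples also reads 58 h. Developmentally delayed worms and males were removed before harvest, per the labels' protocols.

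Each cytosolic ribosome holds 1 copy of nearly every ribosomal protein, so cells make these proteins in nearly equal numbers, and their messenger RNAs are among the most abundant in growing cells. In an adult hermaphrodite much of this RNA lies in the germ line and in the oocytes, which are stocked with ribosomes for the embryo. A few worm ribosomal protein genes have a second copy elsewhere in the genome. In known cases the autosomal copy serves the germ line, where the X chromosome is largely silent, and the X-linked copy serves the body.

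Libraries held 54285989 to 72251267 counts in the second collection and 25630681 to 32932976 in the first. Ribosomal RNA took 0.347% to 0.982% of counts in 17 libraries and 2.25% in replicate 2 of ascr#10 at 50 h. The 9 oocyte markers summed to 8391 to 9559 CPM (counts scaled to a common library size) at 58 h, against 5408 to 5667 at 50 h, and the 7 sperm markers to 24.3 to 46.9 CPM at 58 h, against 394 to 443 at 50 h. The 5 muscle markers summed to 2488 to 4165 CPM at 58 h, against 6483 to 7013 at 50 h. The 4 markers of male somatic cells summed to at most 1.64 CPM in any library.

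The 78 genes together took a large and reproducible share of each library. In counts, the share was 9.56% ± 0.059 in ascr#10 worms and 9.22% ± 0.075 in water worms at 58 h in the second collection (SD, n = 3 each). In the first collection it was 7.58% ± 0.144 in ascr#10 worms and 7.54% ± 0.036 in water worms at 58 h, against 9.37% ± 0.061 in ascr#10 worms and 9.24% ± 0.062 in water worms at 50 h. At 58 h the samples of the second collection thus lay above those of the first by about as much as the 50 h samples did. In TPM, which divides by transcript length, the same genes took 31.1% and 30.0% of the total in ascr#10 and water worms of the second collection, 26.4% and 26.2% at 58 h in the first, and 29.0% and 28.6% at 50 h. The members' median annotated exonic length was 532 nucleotides, against 1165 for all 19811 protein-coding genes matched. In bulk samples of whole worms, fewer cells of a type and less RNA per cell cannot be told apart.

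**Figure D1:**
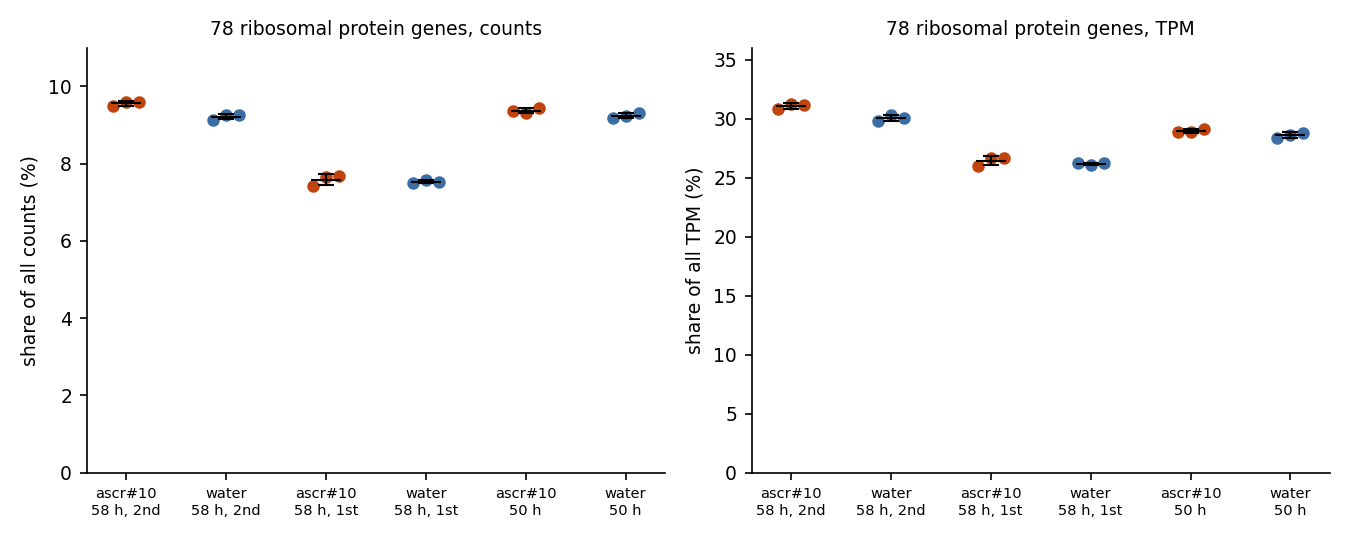
Share of all counts (left, percent) and of all TPM (right, percent) taken by the 78 ribosomal protein genes in each of the 18 samples (points), with the mean and SD of each group of 3 (black); 2nd and 1st are the collections. The first-collection samples at 58 h are lowest on both scales, with counts shares between 7.42% and 7.68%.

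Per length, most of the genes had levels within a few-fold of each other. The mean TPM over the 18 samples had a median of 2701 (interquartile range 2219 to 3299), and 62 of the 78 genes lay between 1500 and 4500 TPM. Another 10 genes lay above 4500 TPM, of which 8 have under 400 exonic nucleotides, and 6 lay below 1500. The highest were rpl-39 at 26172 TPM, rpl-41.2 at 18762 TPM and rpl-29 at 18503 TPM, which encode very small basic proteins of the large subunit. Their place at the top depends on the division by length. In CPM of the library total, not divided by length, rpl-39 averaged 529 and rpl-29 averaged 396, both below the 1340 of rpl-11.1, which had 2536 TPM.

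The lowest was rpl-42, at 2.86 TPM, followed by rpl-24.2 at 161 TPM. The rpl-24.2 gene is the worm ortholog of human RSL24D1, which acts in the assembly of the large subunit and is not part of the mature ribosome. Next came the X-linked copies rpl-25.1 (444 TPM) and rpl-11.2 (583 TPM), then rpl-37 (880 TPM) and rpl-41.1 (1272 TPM). The rpl-37 gene has a single exon in the annotation, where the median member has 3, but so does rpl-43, at 7446 TPM.

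**Figure D2:**
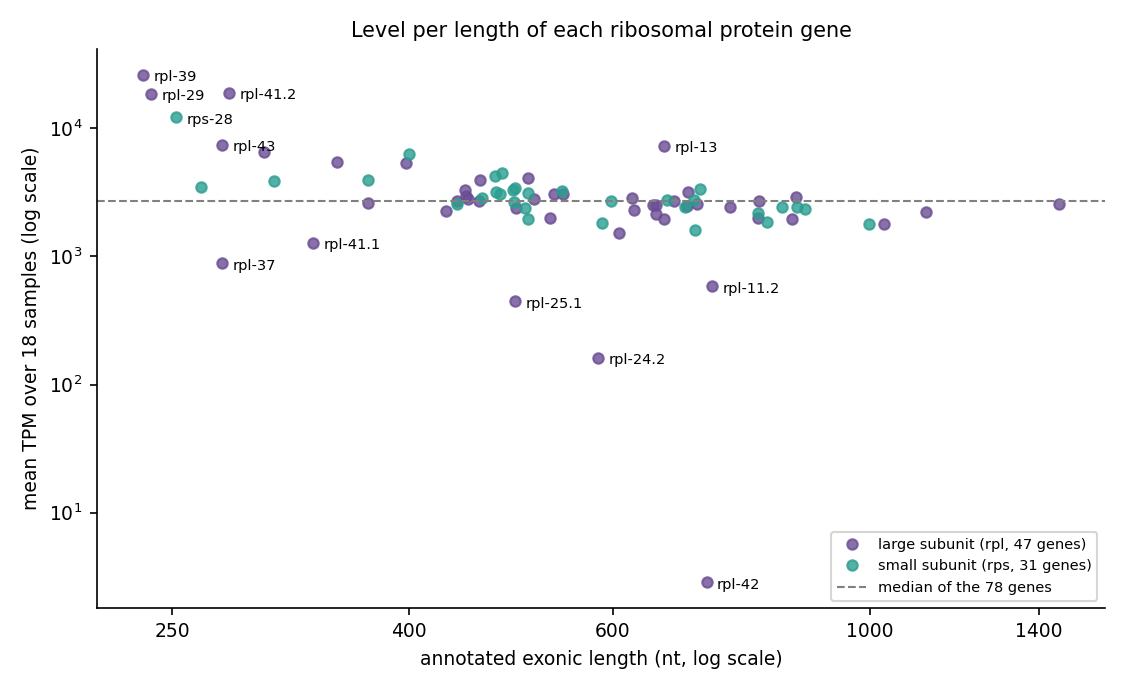
Mean TPM over 18 samples (log scale) against annotated exonic length in nucleotides (log scale) for the 47 large-subunit and 31 small-subunit genes, with the median of 2701 TPM as a dashed line. Most genes lie near the line; the highest are under 300 nucleotides long, and rpl-42, rpl-24.2, rpl-25.1 and rpl-11.2 lie far below it.

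One high value came from a transcript without a coding sequence. The gene level of rpl-13, 7284 TPM, included an annotated transcript with no coding sequence that held 63.4% of its TPM (range 61.4% to 67.1% over 18 samples) but 10.0% of its counts. Without that transcript rpl-13 had 2663 ± 111 TPM (SD, n = 18), near the median of the whole set. Noncoding transcripts also held 29.5% of the TPM of rpl-22 and 1.35% of that of rpl-12, whose worm gene is known to make an unproductive splice form that is removed by nonsense-mediated decay. For rpl-30 the noncoding share averaged 23.4% in ascr#10 worms and 21.7% in water worms at 58 h in the first collection, and 21.4% and 24.9% at 50 h, while in all 6 samples of the second collection this transcript is listed at 0. The transcript table held 192 transcripts of the 78 genes, and 122 of them matched the annotation used here. The other 70 were counted as coding, so the noncoding shares are minimum values. In the 4 genes with a mean noncoding share of at least 1%, no share passed the test with age (exact permutation test within exposure, two-sided, Benjamini-Hochberg adjusted p = 0.81 for each) or with exposure (exact permutation test within age and collection, adjusted p = 0.805 for each). The age differences were -0.82 percentage points for rpl-22 and -0.47 for rpl-13, and the exposure differences were 0.19 and 0.72. Each is a mean over the exposures, or over ages and collections, and the differences averaged were of both signs. In the second collection rpl-30 stood at 0 under both exposures, so those samples could not bear on its exposure test.

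The genes are spread over all 6 chromosomes in the WBcel235 annotation: 23 on I, 18 on III, 17 on IV, 10 on II, 8 on V and 2 on X. The X-linked genes are rpl-11.2 (chrX:2241738-2242618, minus strand) and rpl-25.1 (chrX:4715178-4715796, plus strand). Their autosomal partners are rpl-11.1 (chrV:3585312-3586064, minus strand) and rpl-25.2 (chrI:8329062-8329647, minus strand). Some members are neighbours transcribed away from each other: rps-10 and rpl-24.1, 609 nucleotides apart, rps-14 and rpl-36, 662 apart, and rpl-39 and rps-30, 498 apart. The rpl-41.1 and rpl-41.2 genes follow each other on the plus strand of I, 699 nucleotides apart. Introns of 13 members hold 19 small nucleolar RNA genes, 3 of them in rpl-6, while 0.641% of all protein-coding genes hold any. These RNAs guide the modification of ribosomal RNA.

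The question put to the age comparison was how worms at 58 h differed from worms at 50 h. Nearly all ribosomal protein genes had age changes below the median change of all genes, while the direction of their own fold changes depended on the scaling. Against other genes of like length, the members' median in counts was lower only at 600 nucleotides and over, as given below. In TMM-scaled counts (edgeR's quasi-likelihood test, adjusted p under 0.05 over all genes), 78 of 78 were lower in ascr#10 worms, with a median log2 fold change of -0.26, and 77 of 78 in water worms, with a median of -0.21. Far more than the ribosomal set changed with age: of all genes tested, 43.9% were called lower and 37% higher in ascr#10 worms, and 42.4% lower and 37.5% higher in water worms. The median of all genes tested was -0.13 in ascr#10 worms and -0.10 in water worms. In log2(TPM + 1), tested with limma, 72 members were lower and 1 higher in ascr#10 worms (median -0.13, all genes 0.036), and 70 were lower and 1 higher in water worms (median -0.13, all genes 0.022). On that scale 78.9% of all 15393 genes were called in ascr#10 worms, 5630 lower and 6522 higher, and 77.9% in water worms, 5639 lower and 6347 higher. The age and exposure comparisons at 50 h share the 50 h samples.

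Centring TPM on the median gene of each sample moved the all-gene median to 0.30 in ascr#10 worms and 0.33 in water worms, and 72 members were then called higher and 3 lower with age in ascr#10 worms, and 74 higher and 3 lower in water worms. Of all 15393 genes so tested, 8088 were then higher and 3951 lower in ascr#10 worms, and 8273 higher and 3772 lower in water worms. Under the 11 scalings and fits the members' median lay 0.13 to 0.21 below that of all genes in ascr#10 worms and 0.11 to 0.18 below it in water worms. A scaling common to all genes of a sample cancels in this difference, so agreement between such scalings is built in. At most 1 of 78 members lay above the all-gene median in ascr#10 worms, and at most 3 in water worms. The subunits had close medians in counts, -0.26 for rpl and -0.26 for rps genes in ascr#10 worms and -0.21 for each in water worms.

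**Figure D3:**
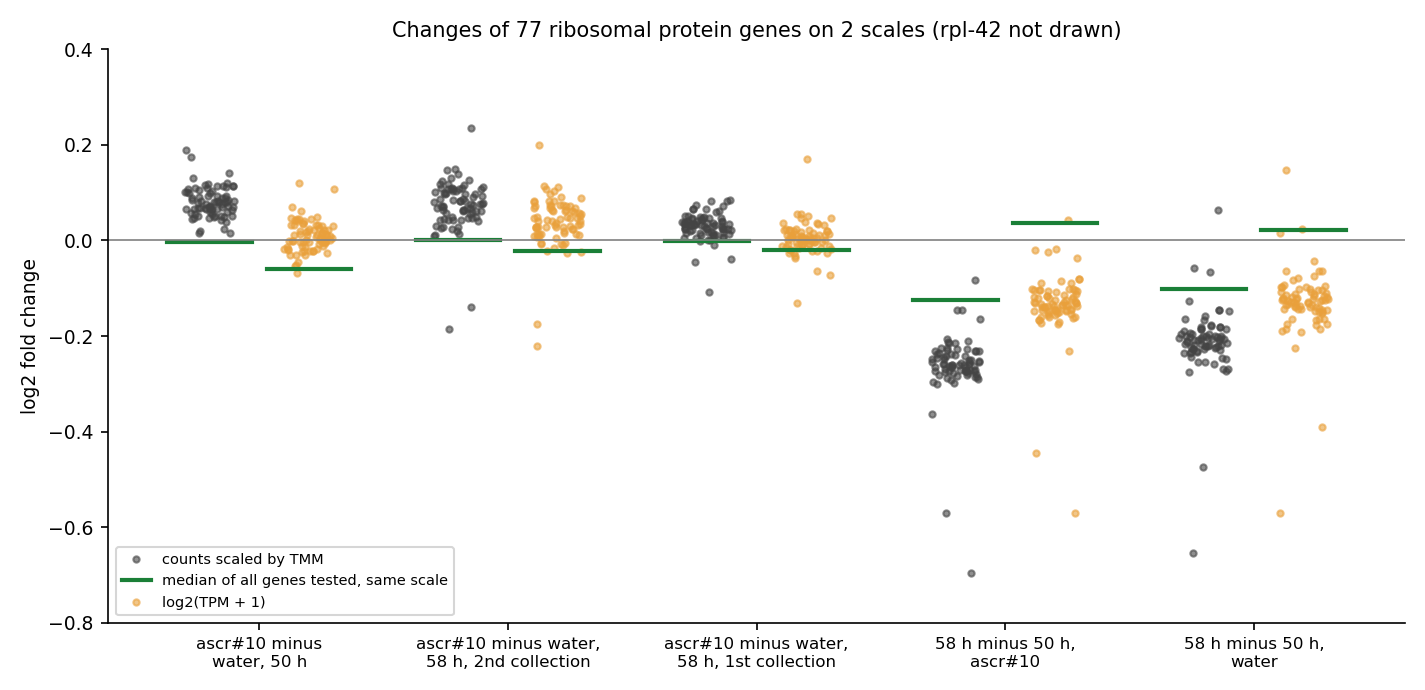
Log2 fold changes of 77 ribosomal protein genes (points; rpl-42, at about -4 with age, is outside the axis and not drawn) in 5 comparisons, each in TMM-scaled counts (grey) and in log2(TPM + 1) (orange), with the median of all genes tested on the same scale (green bars). In the exposure comparisons most points lie above the green bar on both scales; with age nearly all lie below it.

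The gene that fell most was rpl-42. At 58 h it had 4, 5 and 6 counts in ascr#10 worms and 5, 7 and 3 in water worms of the first collection, against 77, 91 and 83 counts in ascr#10 worms and 94, 107 and 107 in water worms at 50 h. In TPM it averaged 0.465 in ascr#10 and 0.490 in water worms at 58 h, against 6.73 and 8.55 at 50 h, and the ages did not overlap. The log2 fold change was -3.98 ± 0.30 (SE) in ascr#10 worms and -4.18 ± 0.29 in water worms (adjusted p = 1.05e-17 and 6.37e-19). All 7 sperm markers also fell with age, with medians of -3.77 in ascr#10 and -3.46 in water worms; the part of sperm content in the rpl-42 change was not tested. In the second collection rpl-42 had 10, 9 and 16 counts in ascr#10 worms and 11, 18 and 15 in water worms, or 0.36 to 0.51 TPM and 0.36 to 0.55 TPM.

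Next came the X-linked copies. In ascr#10 worms rpl-11.2 had 474, 484 and 485 TPM at 58 h, against 722, 698 and 724 TPM at 50 h. In water worms it had 480, 489 and 477 TPM at 58 h, against 724, 724 and 700 TPM at 50 h, so the ages did not overlap under either exposure. Its log2 fold change in counts was -0.70 ± 0.024 (SE) in ascr#10 and -0.65 ± 0.024 in water worms. The rpl-25.1 gene had 401, 405 and 390 TPM in ascr#10 worms at 58 h, against 551, 530 and 548 TPM at 50 h. In water worms it had 418, 395 and 402 TPM at 58 h, against 522, 533 and 538 TPM at 50 h. Its fold changes in counts were -0.57 ± 0.030 and -0.47 ± 0.030. With TPM centred on the median gene, the 3 members called lower with age were rpl-42, rpl-11.2 and rpl-25.1, in ascr#10 and in water worms. The 76 autosomal members had median changes of -0.26 in ascr#10 and -0.21 in water worms.

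After these came rpl-37 and rps-27 in ascr#10 worms and rpl-43 and rps-27 in water worms, among called members whose ages did not overlap. The small-subunit gene rps-27 averaged 417 ± 7.1 CPM in ascr#10 and 412 ± 4.6 CPM in water worms at 58 h, against 514 ± 6.7 and 497 ± 4.7 CPM at 50 h (SD, n = 3 each), with log2 fold changes of -0.30 and -0.27. The large-subunit gene rpl-43 averaged 745 ± 43.2 CPM in ascr#10 and 703 ± 17.007 CPM in water worms at 58 h, against 881 ± 25.7 and 850.5 ± 30.9 CPM at 50 h. Its changes were -0.24 and -0.28, and those of rpl-37 were -0.36 and -0.14.

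The autosomal partners were among the members that fell least. In log2(TPM + 1), rpl-11.1 differed by -0.019 in ascr#10 and -0.043 in water worms, and rpl-25.2 by -0.019 and 0.024, none past the threshold. In counts the fold changes were -0.15 and -0.13 for rpl-11.1 and -0.15 and -0.058 for rpl-25.2, all called lower, while with TPM centred on the median gene both were higher (0.24 and 0.27, 0.24 and 0.33). The smallest fall in ascr#10 worms was that of rpl-12, a protein of the ribosomal stalk base: -0.083 ± 0.021 in ascr#10 and -0.067 ± 0.022 in water worms in counts, and 0.043 (called higher) and 0.016 in log2(TPM + 1).

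The ratio within a pair of genes does not depend on how libraries are scaled. The TPM of rpl-11.2 was 19.5% ± 0.25 of that of rpl-11.1 in ascr#10 worms and 19.9% ± 0.22 in water worms at 58 h in the first collection, against 28.6% ± 0.32 in ascr#10 and 28.6% ± 0.39 in water worms at 50 h (SD, n = 3 each). Every 58 h value lay below every 50 h value. The mean log2 difference in the ratio, 58 h minus 50 h, was -0.54 (exact permutation test within exposure, two-sided, p = 0.005, the smallest 400 permutations can give; adjusted p = 0.02 over 12 tests of 4 pairs). The TPM of rpl-25.1 was 16.997% ± 0.183 of that of rpl-25.2 in ascr#10 worms and 16.987% ± 0.508 in water worms at 58 h, against 22.8% ± 0.45 and 22.7% ± 0.081 at 50 h. Here the log2 difference was -0.42 (same exact test, p = 0.005, adjusted p = 0.02). Both pairs shifted toward the autosomal copy with age, under ascr#10 and under water. Over the same ages all 9 oocyte markers rose (medians 0.70 in ascr#10 and 0.73 in water worms) and all 5 muscle markers fell (medians -0.78 and -0.72). In each exposure 2 intestine markers rose and 4 fell, and 1 neuron marker rose and 4 fell. The intestine markers summed to 38587 to 41261 CPM at 58 h in the first collection, against 25206 to 27495 at 50 h. Of all genes, 37% rose and 43.9% fell in ascr#10 worms, and 37.5% and 42.4% in water worms. The part of tissue content in the ratios was not tested.

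The other pairs with like names moved differently. The TPM of rpl-24.2 stayed between 4.85% and 5.60% of that of rpl-24.1 in all 18 samples (age difference in log2 ratio 0.036, exact permutation test, adjusted p = 0.307). The rpl-41.1 gene, the lower of the tandem rpl-41 copies, stood at 6.25% ± 0.44 of rpl-41.2 in ascr#10 worms and 6.61% ± 0.14 in water worms at 58 h in the first collection, against 5.69% ± 0.16 and 5.29% ± 0.32 at 50 h (difference 0.23, exact permutation test, p = 0.01, adjusted p = 0.027). In ascr#10 worms alone the ages overlapped. Reads that match both genes of a pair are divided between them by estimation, which was not checked here. The rpl-36 and rpl-36.A genes share part of a name only, since rpl-36.A is named for another protein of the large subunit.

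**Figure D4:**
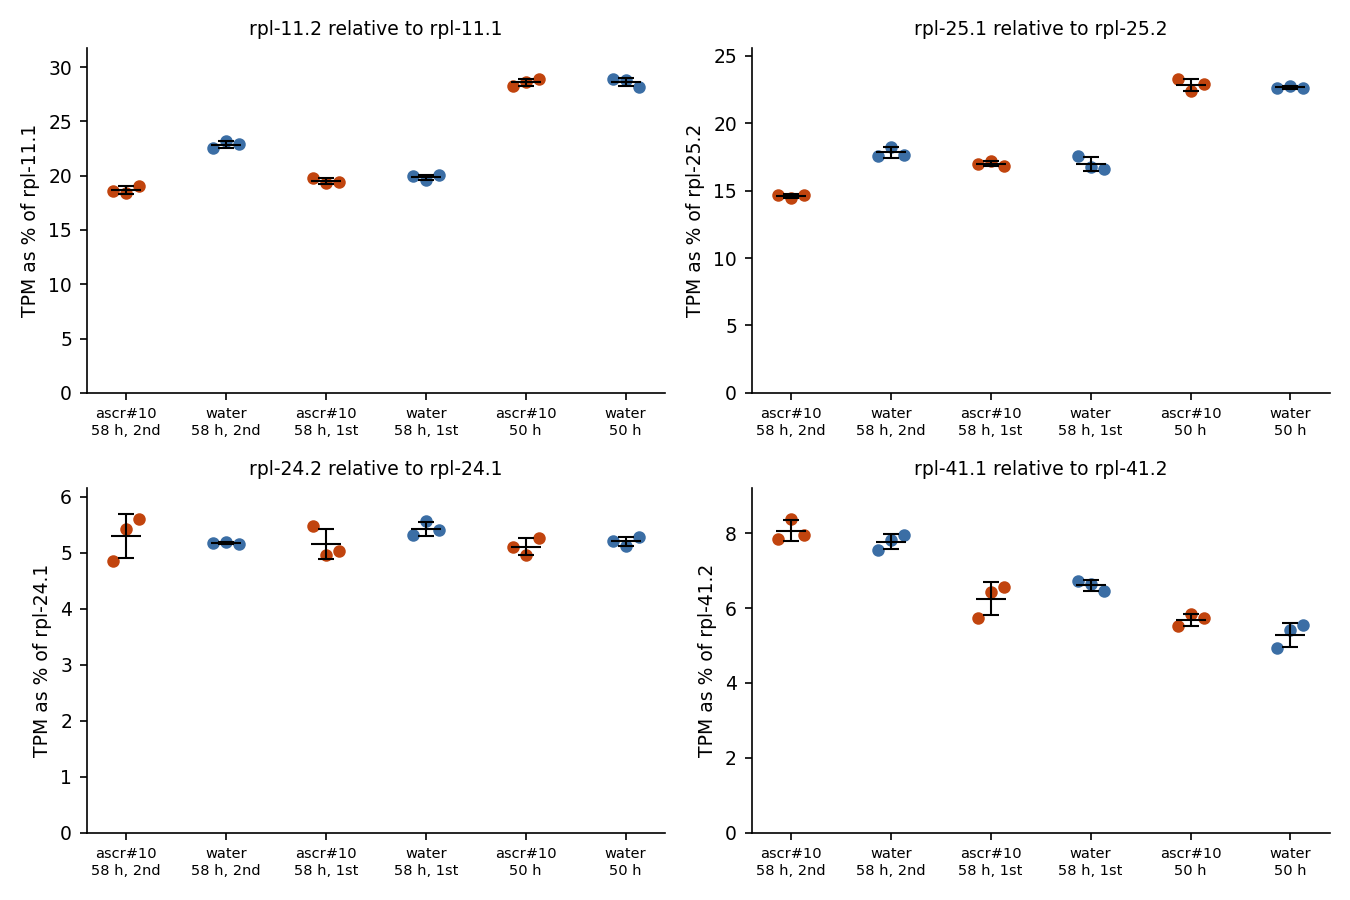
TPM of the lower gene as a percentage of its partner's TPM in 4 pairs of like-named genes, in each of the 18 samples (points) with the mean and SD of each group of 3 (black); 2nd and 1st are the collections. The X-linked copies rpl-11.2 and rpl-25.1 are lower at 58 h than at 50 h, and in the second collection lower in ascr#10 than in water worms.

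The question put to the exposure comparison was how worms grown with ascr#10 differed from worms grown with water. At 50 h the ribosomal protein genes lay slightly above other genes in ascr#10 worms. In TMM-scaled counts 44 of 78 were called higher and 0 lower, against 7.7% of all genes tested called higher and 5.2% lower. The median log2 fold change was 0.077, a factor of 1.06, where the median of all genes was -0.0023. In log2(TPM + 1) limma called 0 members higher and 1 lower (rpl-5, which binds the 5S ribosomal RNA, at -0.050), with 5 at an unadjusted p under 0.05, against 2.85% of all genes called higher and 13.4% lower. The member median was 0.0062 and the all-gene median -0.060. With counts scaled to the library total alone, 0 members were called higher, and of all 16006 genes 523 were called higher and 1880 lower, where TMM gave 1233 and 832. Leaving out 1 library gave 23 higher without replicate 2 of ascr#10, 27 without its replicate 3, 21 without replicate 1 of water and 28 without its replicate 2. Of all genes, 893 to 933 were called higher in these fits. The direction relative to other genes was the same on each of the 12 scalings and fits, with 76 or 77 of 78 members (77 of 77 with DESeq2) above the all-gene median and the members' median 0.066 to 0.081 above it. As with age, a scaling common to all genes of a sample cancels in this difference. At the same age 7 of 9 oocyte markers were also higher in ascr#10 worms (median 0.082) and 3 of 7 sperm markers lower (median -0.12), and 3 of 6 intestine markers were higher and 1 lower. The part of tissue content was not tested.

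At 50 h the largest called changes without overlap between the groups were 0.11 to 0.12 in counts. Very short members such as rpl-29 (0.18, adjusted p = 0.101) and rps-28 (0.14, adjusted p = 0.101) had larger values that did not pass. The rpl-36 gene had 711, 756 and 733 CPM in ascr#10 worms, against 669.9, 671 and 689 in water worms, with no overlap (log2 fold change 0.12 ± 0.025, adjusted p = 0.000642). In TPM it had 5467, 5625 and 5586 in ascr#10 worms and 5334, 5355 and 5461 in water worms, a difference of 0.046 that did not pass. The other 4, rpl-17, rpl-31, rpl-27 and rps-25, ranged from 0.11 to 0.12 in counts and from 0.040 to 0.046 in log2(TPM + 1), where none passed. The calls for rpl-17, rpl-24.1, rpl-36.A, rpl-41.2 and rpl-11.2 were lost when any of 4 to 6 of the 6 libraries was left out.

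At 58 h, over both collections, 53 members were called higher and 2 lower in ascr#10 worms in counts, against 11.8% of all genes called higher and 13.7% lower. The member median was 0.052 and that of all genes 0.00048. In log2(TPM + 1), 4 were called higher (rps-13, rps-27, rpl-12 and rpl-36) and 2 lower (rpl-11.2 and rpl-25.1), against 1.94% of all genes higher and 13.6% lower. The member median was 0.022 and the all-gene median -0.022. With counts scaled to the library total alone 13 were called higher, and of all genes 800 higher and 2439 lower. Without replicate 2 of ascr#10 in the first collection 34 were, and of all genes 1630 higher and 1934 lower, where all libraries gave 1889 and 2194. Under each of 12 scalings and fits 75 of 78 lay above the all-gene median, a place that a scaling common to all genes does not change. Of the markers, 8 of 9 for oocytes were higher (median 0.086), and 6 of 7 for sperm (median -0.48) and all 5 for muscle (median -0.20) were lower. Of 6 intestine markers 1 was higher and 3 lower (median -0.081), and of 5 neuron markers 0 were higher and 1 lower. Of 6 markers of germline mitosis and meiosis 4 were higher and 0 lower. Their part was not tested. Within the second collection 50 members were called higher and 2 lower (median 0.075, all genes -2.37e-05), against 15.3% and 16.4% of all genes. Within the first collection 3 were called higher and 0 lower (median 0.032, all genes -0.0011), with 12 at an unadjusted p under 0.05, against 2.84% and 5.22% of all genes.

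The largest called rise was that of rpl-36, a large-subunit gene. It had 849, 913 and 916 CPM in ascr#10 worms of the second collection, against 789, 836 and 820 in water worms, and 607, 615 and 616 in ascr#10 worms of the first collection, against 579, 585 and 591 in water worms. The groups did not overlap in either collection, and the log2 fold change over both was 0.099 ± 0.018 (adjusted p = 2.78e-05). The rpl-12 gene had 1354, 1361 and 1364 CPM in ascr#10 worms and 1233, 1285 and 1267 in water worms of the second collection, and 1014, 1054 and 1027 in ascr#10 worms and 975, 990 and 992 in water worms of the first. It differed by 0.087 ± 0.015 in counts (adjusted p = 1.39e-05) and by 0.056 in log2(TPM + 1) (adjusted p = 0.00228), passing on both scales. The other named rises, rpl-13, rpl-27 and rps-20, ranged from 0.044 to 0.056 in counts and did not pass in log2(TPM + 1). The call for rps-20 was lost when any of 6 of the 12 libraries was left out.

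The X-linked copies were lower in ascr#10 than in water worms at 58 h, while the other called members were higher. In the second collection rpl-11.2 had 532, 490 and 505 TPM in ascr#10 worms, against 590, 593 and 596 TPM in water worms, with no overlap. In the first collection it had 474, 484 and 485 TPM in ascr#10 worms and 480, 489 and 477 TPM in water worms, which overlapped. In counts the difference was -0.19 ± 0.022 within the second collection (adjusted p = 3.53e-09) and 0.023 ± 0.024 within the first (adjusted p = 0.664). For rpl-25.1 the TPM values were 355, 375 and 382 in ascr#10 worms and 407, 436 and 412 in water worms of the second collection, and 401, 405 and 390 in ascr#10 worms and 418, 395 and 402 in water worms of the first. Its differences in counts were -0.14 ± 0.027 within the second collection (adjusted p = 6.3e-05) and 0.0049 ± 0.031 within the first (adjusted p = 0.96). Over both collections rpl-11.2 differed by -0.081 ± 0.017 (adjusted p = 0.000165) and rpl-25.1 by -0.067 ± 0.021 (adjusted p = 0.0116), a call that was lost without replicate 1 of water in the first collection or replicate 2 of water in the second.

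The pair ratios show the same split by collection. In the second collection rpl-11.2 stood at 18.7% ± 0.36 of rpl-11.1 in ascr#10 worms and at 22.9% ± 0.29 in water worms, a log2 difference of -0.29, where the differences were -0.026 at 58 h in the first collection and -0.0025 at 50 h. Over all 3 strata the mean was -0.11 (exact permutation test within age and collection, two-sided, p = 0.0112, adjusted p = 0.027). The rpl-25.1 gene stood at 14.6% ± 0.14 of rpl-25.2 in ascr#10 worms and at 17.8% ± 0.38 in water worms of the second collection, a log2 difference of -0.29, against 0.0012 at 58 h in the first collection and 0.012 at 50 h. Its mean over the strata, -0.092, did not pass (exact permutation test, p = 0.0665, adjusted p = 0.133). In the second collection all 5 muscle markers and 5 of 6 intestine markers were also lower in ascr#10 worms (medians -0.30 and -0.15) and 8 of 9 oocyte markers were higher (median 0.14). In the first collection 2 muscle markers were lower, 1 intestine marker (act-5, 0.22) was higher and none lower, and no oocyte marker passed. The part of tissue content in the ratios was not tested.

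The exposure effect was tested for a difference between the ages and between the collections. Between 58 h in the first collection and 50 h, edgeR called 0 of 78 members, with 18 at an unadjusted p under 0.05, against 4.74% of all genes called. DESeq2 called 0, and limma on log2(TPM + 1) called 0, with 4 at an unadjusted p under 0.05, against 3.72% of all genes. The members' median difference was -0.047 in counts and -0.0029 in log2(TPM + 1). Between the second and the first collection at 58 h, 9 members had a higher effect and 2 a lower one in counts, against 4.34% and 6.8% of all genes. In log2(TPM + 1) it was 5 and 1, against 2.28% and 5.42%. The lower ones were rpl-11.2 and rpl-25.1. The highest was rpl-37, with 153, 146 and 149.9 CPM in ascr#10 worms and 125, 125 and 131 in water worms of the second collection, and 64.4, 69.7 and 68.6 in ascr#10 worms and 76.5, 72.8 and 68.9 in water worms of the first. Its effect was 0.23 in the second collection and -0.11 in the first, a difference of 0.34 ± 0.063 (adjusted p = 0.000639). Without replicate 1 of ascr#10 in the second collection 18 members were higher, and of all genes 957, where all libraries gave 694. Without any of 6 other libraries 4 or 5 were (replicates 2 and 3 of ascr#10 and 1 and 3 of water in the second collection, 1 and 3 of water in the first). Of all genes, 481 to 576 were higher in these fits. The lower calls dropped to 1 without replicate 2 of ascr#10 or of water in the first collection, or of water in the second. Of all genes, 962 to 975 were then lower, against 1089 with all libraries. Fitting only the 58 h samples gave 1 higher and 4 lower, and of all genes 239 higher and 1347 lower.

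Between the collections themselves most ribosomal protein genes differed in counts. At 58 h, 76 of 78 were higher in the second collection than in the first in ascr#10 worms (median 0.39, all genes 0.024) and 74 of 78 in water worms (median 0.34, all genes 0.013), and 0 were lower. Of all genes, 30.2% were higher and 25.4% lower in ascr#10 worms, and 30.8% higher and 27.3% lower in water worms. In log2(TPM + 1) the split was 49 higher and 9 lower in ascr#10 worms, against 9.73% and 45.8% of all genes, and 42 higher and 14 lower in water worms, against 11.8% and 46.9%. The medians on that scale were 0.10 and 0.063, where those of all genes were -0.16 in each exposure. Shorter members had larger differences. In ascr#10 worms the median was 0.67 for the 14 members under 400 nucleotides, 0.41 for the 31 from 400 to under 600 and 0.29 for the 33 of 600 and over. In water worms the medians were 0.62, 0.40 and 0.25. Across the 78 members, Pearson's r between log2 length and the difference was -0.78 in ascr#10 worms and -0.79 in water worms, with Spearman's rho at -0.79 in each, as a description over genes that share the same libraries. Over the 15909 other genes with a length, r was -0.23 in ascr#10 and -0.18 in water worms, with rho at -0.35 and -0.33. Shorter genes outside the set thus also had larger differences. From the shortest length class to the longest, their medians were 0.44, 0.29 and -0.0077 in ascr#10 worms. In water worms they were 0.35, 0.29 and -0.018. In each class the members had the higher median. The extremes were rpl-41.1, 331 nucleotides long, at 1.32 in ascr#10 and 1.16 in water worms, and rpl-3, with 1456 nucleotides the longest member, at -0.013 in water worms (adjusted p = 0.684). The ratio of rpl-41.1 to rpl-41.2, of similar length, was also higher in the second collection: 8.06% ± 0.28 in ascr#10 worms and 7.77% ± 0.21 in water worms, against 6.25% and 6.61% in the first (log2 difference 0.30, exact permutation test, p = 0.005, adjusted p = 0.02). Collection date, sequencing run and library preparation cannot be told apart here.

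**Figure D5:**
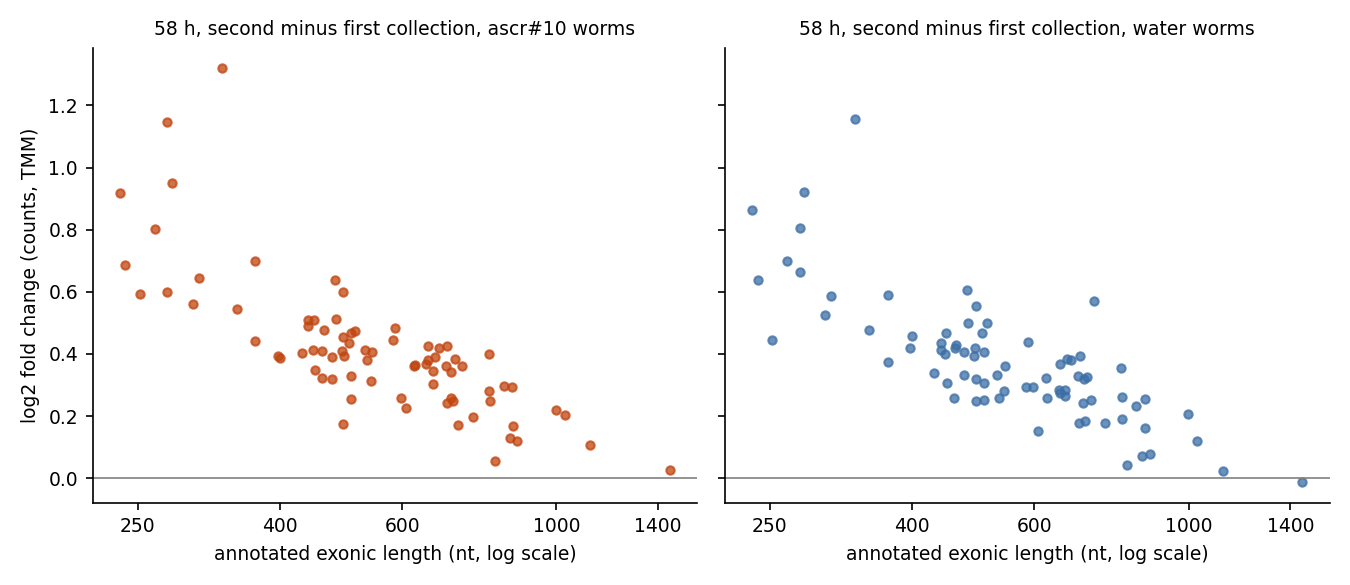
Log2 fold change in TMM-scaled counts between the second and the first collection at 58 h against annotated exonic length in nucleotides (log scale) for the 78 ribosomal protein genes, in ascr#10 worms (left) and water worms (right). Short genes lie highest, with a median of 0.67 in ascr#10 and 0.62 in water worms below 400 nucleotides.

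With age and with exposure the members' length classes lay closer together. The same 3 length classes had medians of -0.27, -0.26 and -0.26 with age in ascr#10 worms and -0.22, -0.21 and -0.21 in water worms. Other genes of these lengths had medians of -0.47, -0.32 and -0.082 in ascr#10 worms and -0.37, -0.30 and -0.067 in water worms. At the median, members under 600 nucleotides thus fell less than other genes of their length, and members of 600 and over fell more. With exposure the members' medians were 0.10, 0.081 and 0.067 at 50 h, and 0.069, 0.048 and 0.047 at 58 h. Those of other genes of these lengths were 0.027, 0.018 and -0.0059 at 50 h, and -0.066, -0.036 and 0.0033 at 58 h. Members that host small nucleolar RNAs had a median age change of -0.25 in ascr#10 and -0.20 in water worms, and the other 65 members -0.26 and -0.21.

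Ribosome components that the naming rule leaves out were lower with age as well. These were the stalk proteins rla-0, rla-1 and rla-2, the ubiquitin fusions ubl-1 and ubq-2, which release a small and a large subunit protein, and rack-1, a scaffold on the small subunit. In TMM-scaled counts all 6 were lower with age in both exposures (-0.24 to -0.29 in ascr#10 and -0.21 to -0.26 in water worms). Of all genes, 43.9% were lower in ascr#10 and 42.4% in water worms. With exposure, ubq-2 (0.062) and rack-1 (0.083) were higher in ascr#10 worms at 50 h, and ubl-1 (0.059), ubq-2 (0.057) and rack-1 (0.048) at 58 h. Of all genes, 7.7% were higher at 50 h and 11.8% at 58 h. All 6 were higher in the second collection than in the first, against 30.2% of all genes in ascr#10 and 30.8% in water worms.

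Genes that build the ribosome changed in both directions with age, at shares near those of all genes. Of 30 biogenesis factors, in TMM-scaled counts, 10 rose and 11 fell with age in ascr#10 worms, and likewise 10 and 11 in water worms, where of all genes 37% rose and 43.9% fell in ascr#10 worms and 37.5% and 42.4% in water worms. The largest rise was nol-10 (0.45 in ascr#10, 0.41 in water), and nol-2 (-0.44 and -0.36) and nol-6 (-0.44 and -0.40) fell. With exposure, 1 rose and 2 fell at 50 h (riok-1 at -0.15, nol-14 at -0.12, nol-2 at 0.085), and 6 rose and 0 fell at 58 h, among them eif-6 (0.086), which keeps new large subunits from joining small ones too early. Of all genes, 7.7% rose and 5.2% fell at 50 h, and 11.8% and 13.7% at 58 h. Of 10 genes of growth control, 7 rose and 2 fell with age in ascr#10 worms, and 7 rose and 3 fell in water worms. The Rag GTPases raga-1 (0.35 and 0.38) and ragc-1 (0.42 and 0.43) and daf-15, the worm Raptor (0.32 and 0.35), rose, while rpoa-1, a subunit of RNA polymerase I, which transcribes ribosomal RNA, fell (-0.39 and -0.51). Of 9 genes of messenger RNA decay, 9 rose in ascr#10 worms and 8 in water worms, led by smg-6 (0.47 and 0.44). With exposure smg-4 rose at 58 h (0.067), and of the growth control genes rpoa-1 fell at 50 h (-0.12) and ragc-1 rose at 58 h (0.067).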

How the data were processed

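RNA from whole worms was sequenced as single-end reads from directional libraries, per the labels' protocols. The authors deposited estimated counts and TPM per gene and per transcript, made with salmon, per the file headers and names; the sources used here give neither a version nor a genome build or annotation. Estimated counts were rounded and tested with edgeR 4.0.16 (quasi-likelihood, filterByExpr with a count minimum of 10, TMM, 6 group means over 18 samples, Benjamini-Hochberg over 16006 genes, threshold 0.05). Deposited TPM were tested with limma 3.58.1 on log2(TPM + 1) over 15393 genes with at least 1 TPM in at least 3 samples, a scale that understates changes of low genes. DESeq2 1.42.0 served as an alternative. CPM values of single genes by group are TMM-scaled, while the summed CPM of markers are scaled to the library total alone. Depth ranged from 25630681 to 72251267 counts. Gene positions and transcript classes came from Ensembl's WBcel235 annotation. The genes and lists were chosen with earlier results of these data known, and the comparisons between and within collections and the pair ratios were added after values were seen. Named genes are like-named genes, the 5 largest called changes per direction without overlap between groups, the 3 highest and lowest by TPM, and members called against the majority.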

Additional observations from a re-analysis of the deposited data

Results flagged for a closer look

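The effect of ascr#10 at 58 h differed between the collections (a test of the second minus the first, edgeR's quasi-likelihood test, adjusted p under 0.05) for 11 ribosomal protein genes, 9 higher and 2 lower, against 4.34% and 6.8% of all genes. The log2 differences were -0.21 for rpl-11.2, -0.14 for rpl-25.1, 0.085 for rpl-4, 0.086 for rpl-5, 0.098 for rps-26, 0.11 for rpl-18, 0.11 for rpl-9, 0.11 for rps-27, 0.14 for rpl-25.2, 0.15 for rpl-24.2 and 0.34 for rpl-37. When each of the 12 libraries was left out in turn, the call was lost in 10 cases for rpl-4, 9 for rpl-5, 9 for rpl-24.2, 7 for rps-26, 6 for rpl-18 and 3 for rpl-25.1, and in none for rpl-37, rpl-25.2, rps-27, rpl-9 and rpl-11.2. With only the 58 h samples fitted, 1 of the higher calls (rpl-37) and both lower calls stood.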

How the results depend on the processing

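Counts of ribosomal protein genes called higher and lower moved most with the scaling. With total counts and no TMM, 0 were called higher at 50 h and 13 at 58 h with exposure. Of all genes, 523 and 800 were, where TMM gave 1233 and 1889. Under limma on log2(TPM + 1) or log2(TPM + 0.1), 0 were higher and 1 lower at 50 h for the first and 0 higher for the second, 4 were higher at 58 h, 1 was higher with age in each exposure, and the collection difference had 5 higher and, for the first, 1 lower. Of all genes, the 2 fits called 439 and 394 higher and 2066 and 1315 lower at 50 h, and 299 and 305 higher at 58 h. With age they called 6522 and 6520 higher in ascr#10 worms and 6347 and 6346 in water worms. In the collection difference they called 351 and 356 higher and 834 and 863 lower. The single genes that turned there were rpl-11.2 (-0.002937 and -0.002941) and rpl-24.1 (-6.688e-05 and -6.686e-05) at 50 h, and rpl-25.2 with age in water worms (0.02436 and 0.02437). TPM centred on the sample median, chosen after seeing the data, gave 74 higher and 3 lower with age in water worms, 72 and 3 in ascr#10 worms, 0 lower with exposure at 58 h, and 31 higher and 1 lower in the collection difference. Of all genes, the centring gave 8273 higher and 3772 lower with age in water worms and 8088 and 3951 in ascr#10 worms. It gave 1229 lower with exposure at 58 h, and 1427 higher and 660 lower in the collection difference. It turned the age change in water worms of rpl-43 (0.1177), rps-27 (0.1188), rpl-11.1 (0.2656), rpl-24.1 (0.1851), rpl-24.2 (0.2449), rpl-25.2 (0.3333), rpl-36.A (0.1663), rpl-36 (0.182), rpl-41.2 (0.1337), rpl-29 (0.2355) and rpl-39 (0.1872). In ascr#10 worms it turned that of rpl-37 (0.03186), rps-27 (0.0886), rpl-11.1 (0.2441), rpl-24.1 (0.1417), rpl-24.2 (0.1551), rpl-25.2 (0.2449), rpl-36.A (0.1569), rpl-36 (0.126), rpl-41.1 (0.2266), rpl-41.2 (0.09383), rpl-29 (0.13) and rpl-39 (0.111). An exposure effect common to both collections gave 26 higher at 50 h and 1 lower at 58 h, and DESeq2 1 lower at 58 h. Of all genes, the common effect gave 761 higher at 50 h and 2054 lower at 58 h, and DESeq2 1903 lower at 58 h. Without a filter on low counts 1 gene was lower in the age difference, and 2 were higher and 4 lower in the collection difference. Of all genes, 550 were then lower in the age difference, and 328 higher and 1490 lower in the collection difference. Fitting only the groups compared gave 1 higher and 4 lower in the collection difference, and of all genes 239 higher and 1347 lower. The causes were not tested. Over the single named genes, these alternatives kept direction and call in 849 values, lost the call in 119, gained it in 18 and turned the direction in 29. Of the 29, 23 came from the centring, which moves all genes of a comparison by a common amount, and 6 from the TPM fits above.

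Leaving out each library in turn gave 21 to 37 higher at 50 h, 34 to 56 higher and 1 to 2 lower at 58 h, 74 to 77 lower with age in water worms, 77 to 78 lower in ascr#10 worms, 0 to 1 lower in the age difference, and 4 to 18 higher and 1 to 2 lower in the collection difference. Of all genes, these fits called 893 to 1005 higher at 50 h, and 1590 to 2073 higher and 1931 to 2149 lower at 58 h. With age they called 6549 to 6640 lower in water worms and 6822 to 6911 in ascr#10 worms. In the age difference 461 to 586 were lower, and in the collection difference 481 to 957 were higher and 957 to 1141 lower. For single named genes 896 values kept their call, 102 lost it and 4 gained it. The transcript share calls stayed at 0. The pair ratio calls held, with rpl-11.2 against rpl-11.1 at -0.545 to -0.535 with age and -0.112 to -0.104 with exposure. Replicate numbers gave no clear pairing of the samples. Deviations of log2 CPM from the group means correlated at -0.0622 to 0.199 over 21 same-numbered pairs, 2 of them above 0.1. Both were in the second collection, where differently numbered pairs ran from -0.211 to 0.116. The replicate block gave 54 higher at 50 h, 59 higher and 2 lower at 58 h, 77 and 78 lower with age in water and ascr#10 worms, 1 lower in the age difference, and 11 higher and 2 lower in the collection difference. Of all genes it called 1290 higher at 50 h, 2006 higher and 2222 lower at 58 h, and 6770 and 7017 lower with age. In the age difference it called 644 lower, and in the collection difference 758 higher and 1117 lower.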
